A study of Homo sapiens with 6 samples.

Results

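The clustered histone genes encode the core histones H2A, H2B, H3 and H4 and the linker histone H1, and they lie in groups named HIST1 to HIST4. Members were taken by name: 73 of the 23340 gene names in the tables begin with HIST, a cluster number from 1 to 4 and the letter H. HIST1, on chromosome 6, holds 56 of them, HIST2 and HIST3, both on chromosome 1, hold 13 and 3, and HIST4, on chromosome 12, holds 1. By product there are 6 H1, 18 H2A, 20 H2B, 14 H3 and 15 H4 genes.

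RNA was sequenced from 3 human cell lines in 6 libraries, 2 per line, 1 labelled 25M reads and 1 labelled deeper. The deeper library is labelled 50M for HT-29 and MDA-MB-436. For MCF10A its labels conflict, with 100M in the title and 50M in the sample type. MCF10A is a non-tumorigenic mammary epithelial line, grown in DMEM/F12 with horse serum, EGF, hydrocortisone, cholera toxin and insulin. HT-29 is a colorectal adenocarcinoma line, grown in McCoy's 5A with FBS and, by its labels, given 200 U/ml of IFN-γ for 24 h. MDA-MB-436 is a breast carcinoma line, grown in L-15 with FBS, with no treatment in its labels. No untreated HT-29 library was analysed here, so line, medium and treatment cannot be told apart in any comparison. The labels do not say whether a line was cultured more than once, so the p-values reflect only how far these libraries differ, which may be technical.

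Markers went against the labels of both carcinoma lines. Taken in the order MCF10A, HT-29 label, MDA-MB-436 label, KRT20, an intestinal keratin, had normalised counts of 0 and 1.47, 0 and 0.547, and 29900 and 30880. VIL1, which encodes villin of the intestinal brush border, was at 0 in the first 4 libraries and at 2055 and 2198 under the MDA-MB-436 label. VIM, the mesenchymal filament vimentin, stood at 25901 and 26246, at 36599 and 35267, and at 16.5 and 7.39. CDX2, an intestinal transcription factor, was at 0 in the first 4 libraries and at 194 and 182 in the last 2. CDH2, the mesenchymal N-cadherin, stood at 4553 and 4446 under the HT-29 label, at 73.03 and 69.7 in MCF10A and at 0 and 0.616 under the MDA-MB-436 label. KRT5, a basal keratin, stood at 424101 and 416184 in MCF10A and at most at 236 elsewhere. Libraries labelled MDA-MB-436 thus had high intestinal markers, while those labelled HT-29 had none or nearly none and the highest VIM. Samples were kept as labelled, and every value below belongs to "the libraries labelled HT-29" (short for HT-29 with IFN-γ) or "the libraries labelled MDA-MB-436", also written as the HT-29 label and the MDA-MB-436 label, whichever cells they hold.

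Most clustered histone genes are transcribed while DNA is copied, so that new chromatin can be packed. Their mRNAs are the metazoan mRNAs known to end without a poly(A) tail: the stem-loop binding protein SLBP holds a short hairpin near the end of the message, and a U7 snRNP complex cuts just after it. Some members can also be read through to a downstream poly(A) signal, which gives tailed mRNA in differentiated or resting cells. A protocol that captures tails would see mainly the latter form, and the labels do not say whether tails were captured.

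The hairpin was searched for in the GENCODE release 29 transcripts, which held all 73 members. It was found in 33 members and in 0.254% of 19669 protein-coding genes. Models that stop at the coding sequence have no hairpin to find. The sequences below, written as DNA, are of 8 of the 12 highest members and of HIST1H3E, HIST1H2AG and HIST1H4H, which the comparisons name, and show how nearly alike the hairpins are. Capitals mark the 16-base hairpin.
HIST1H2AC: ccaaaGGCTCTTTTCAGAGCCcccct
HIST2H2BE: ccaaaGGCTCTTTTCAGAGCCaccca
HIST3H2A: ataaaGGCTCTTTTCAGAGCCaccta
HIST1H2BD: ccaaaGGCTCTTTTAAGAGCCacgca
HIST2H2BF: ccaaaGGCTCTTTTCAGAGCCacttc
HIST1H2BH: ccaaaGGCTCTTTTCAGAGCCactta
HIST1H2BC: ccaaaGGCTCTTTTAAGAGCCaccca
HIST2H2BC: ccaaaGGCTCTTTTCAGGGCCattta
HIST1H3E: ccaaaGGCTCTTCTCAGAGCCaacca
HIST1H2AG: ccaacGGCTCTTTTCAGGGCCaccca
HIST1H4H: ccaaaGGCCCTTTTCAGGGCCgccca
The form printed for HIST1H2AC was shared by 17 members of types H2A, H2B and H3, the form of HIST1H4H by 5 members, all H4, and the form of HIST1H2BD by 5. Of the 33 members with a hairpin, 23 also had AATAAA or ATTAAA within the last 40 bases of a transcript model, which 80.8% of all protein-coding genes had. In the HIST1H2AC model the hairpin was followed by 1114 bases, in HIST2H2BE by 1729 and in HIST1H2BD by 39. A message that ends at the hairpin and one that runs on to the poly(A) signal share their coding part, and the gene totals do not separate them.

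H2A and H2B genes often start back to back. The members held 11 such pairs with starts at most 1000 bases apart and on opposite strands, so 1 window can hold the start of both genes. The first window, chr6:26123922-26124221 on the plus strand (RefSeq, GRCh38.p14), runs from 250 bases before to 50 bases after the start of HIST1H2AC, and HIST1H2BC starts 246 bases away. The second, chr1:149886668-149886967 on the plus strand, is the same window of HIST2H2AC, and HIST2H2BE starts 236 bases away. Both are shown because the paired genes differed in the comparisons below. Capitals mark TTTGCAT (the core of the octamer motif), CCAAT and TATAAA on either strand.
HIST1H2AC window: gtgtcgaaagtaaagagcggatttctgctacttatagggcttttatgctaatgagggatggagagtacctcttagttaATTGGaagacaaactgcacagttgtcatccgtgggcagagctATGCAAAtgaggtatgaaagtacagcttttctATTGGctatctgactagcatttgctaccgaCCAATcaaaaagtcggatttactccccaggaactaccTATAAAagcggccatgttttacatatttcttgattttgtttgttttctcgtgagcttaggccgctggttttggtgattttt
HIST2H2AC window: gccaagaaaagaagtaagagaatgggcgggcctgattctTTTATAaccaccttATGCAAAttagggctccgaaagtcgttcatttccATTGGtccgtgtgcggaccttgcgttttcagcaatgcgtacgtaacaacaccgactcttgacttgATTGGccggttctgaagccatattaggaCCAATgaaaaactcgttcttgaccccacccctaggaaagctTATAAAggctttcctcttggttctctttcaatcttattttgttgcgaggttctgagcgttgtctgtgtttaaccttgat
Promoters of this length were found for 65 members. The octamer ATTTGCAT, searched for on both strands, was in 1.80% of all 27305 promoters. Among members it was in 14 of 18 H2B and 11 of 16 H2A promoters, in 1 of 12 H3, and in none of the 6 H1 or 13 H4 promoters. CCAAT, on both strands, was in 35.7% of all promoters, in every H1, H2A, H2B and H3 promoter and in 3 of 13 H4 promoters. TATAAA was in 11.95% of all and in 43 of the 65. AAACACA, an element described in H1 promoters, was in 5.76% of all and in 6 of 6 H1 promoters. Back-to-back genes share part of their windows, so a match can count for both. The 1 H3 promoter with the octamer is that of HIST1H3D, whose window here is the same as that of the H2A gene HIST1H2AD. That match is therefore counted under both types. These matches describe letters and not binding.

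Reads on clustered histone genes were few. Recovered totals ran from 16.7M to 69.5M reads per library, and members took 25.4 and 26.7 RPM (reads scaled to a common library total) in MCF10A, 114 and 114 under the HT-29 label, and 124 and 134 under the MDA-MB-436 label. Between 40 and 60 members had a read in a given library, and 63 had one in at least 1 library. The other 10 had none anywhere, which allows up to 3 reads in a library (counting error only). Near-identical copies, low counts and the length of the gene model limit what the rest show.

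Near-identical copies bear on which member a read is given to. For each member, every 50-base stretch of its transcripts was looked up in all other genes, since reads were 50 bases long. A median of 97.4% of stretches was shared among the 10 members without reads and of 0.562% among the 63 with reads. HIST2H2AA3, HIST2H2AA4, HIST2H3A, HIST2H3C, HIST2H4A and HIST2H4B, which are duplicated copies, shared 97.1% to 100% and had no reads. HIST1H2AD shared 98.0%, also with no reads, whereas HIST1H4F, HIST3H3 and the pseudogene HIST1H2APS1 shared 0 and had none either. Conversely, HIST1H3D, HIST1H2AK and HIST1H4K shared 100% and still had 40, 28 and 27 reads over all libraries. Among high members HIST1H2BK shared 74.1% of its coding model, mostly with H2BFS, so its level is uncertain. HIST2H2AC shared 30.5%, HIST2H2BE 8.11%, HIST1H2AC 0.421% and HIST1H1C 0. Exons of 15 of the 73 members overlapped another gene's exons in GENCODE, among them HIST2H2BF with FCGR1A on the opposite strand. HIST2H2BC overlapped HIST2H2BD on the opposite strand, and HIST1H3D overlapped AL031777.3 on the same strand. No source used here gives the strand setting of the counting, so the reads of such overlapping genes cannot be told apart.

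**Figure D1:**
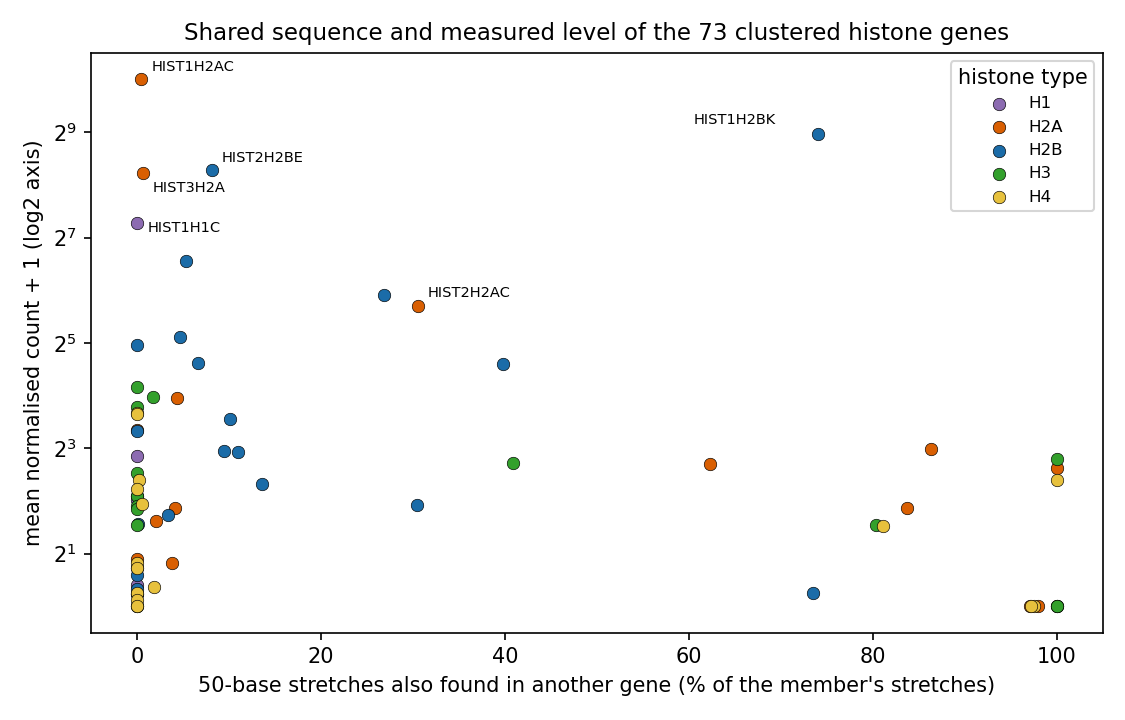
Share of each member's 50-base stretches found in another gene (x axis, percent) against its mean normalised count over 6 libraries plus 1 (y axis, log2 scale), coloured by histone type. HIST1H2AC, HIST3H2A and HIST1H1C sit near 0 percent and HIST1H2BK at 74.1 percent. The lowest points at the right are members without reads, and HIST1H3D, HIST1H2AK and HIST1H4K lie above them at 100 percent.

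Gene lengths, from the ratio of normalised count to RPKM, ran from 353 to 2222 bases with a median of 461 over the 63 members with reads. HIST1H2AC was counted over 545 bases, while its longest GENCODE transcript is 1668 bases. HIST1H2BH was counted over 424 against 2060, and HIST1H2AG over 497 against 2250. HIST2H2BE, at 2222 against 2194, was counted over about the length of its model. HIST1H2BK was counted over 837 against 381 and HIST1H1C over 731 against 642, so for these genes the shared share above describes only the modelled part of the counted region. Counted length and model length thus differ by gene, and levels of single genes are ranked against each other only per kb of counted length. Sums and shares of sums below are of normalised counts, in which longer genes weigh more.

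The summed normalised count of all members was 869 and 912 in MCF10A, 3167 and 3117 under the HT-29 label, and 4259 and 4651 under the MDA-MB-436 label. Means were 890 ± 30.3, 3142 ± 35.4 and 4455 ± 277 (SD, n = 2 each). The groups did not overlap. In bulk RNA, fewer cells that make a message and less of it per cell cannot be told apart. A few genes carried the sums: HIST1H2AC, HIST1H2BK, HIST2H2BE, HIST3H2A and HIST1H1C made up 80.9% over all libraries. HIST1H2AC alone gave 67.7% in the libraries labelled HT-29. Without it the sum there was 1.21 times that of MCF10A, against 3.53 times with it.

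By type, H2B summed to 401 ± 35.2 in MCF10A, 548 ± 9.79 under the HT-29 label and 2407 ± 155 under the MDA-MB-436 label (SD, n = 2 each). H2A summed to 298 ± 9.62, 2417 ± 47.9 and 1568 ± 91.9. H1 summed to 110 ± 2.01, 88.0 ± 7.82 and 303 ± 12.2, of which HIST1H1C gave 90.3%, 92.7% and 92.3%. H3 summed to 55.1 ± 1.54, 50.7 ± 8.97 and 113 ± 26.2, and H4 to 25.5 ± 4.25, 37.2 ± 3.85 and 63.9 ± 8.56. All 5 types were highest in the libraries labelled MDA-MB-436 except H2A, and H2A without HIST1H2AC was 0.444 times as high in the libraries labelled HT-29 as under the MDA-MB-436 label. Scaling bears on the HT-29 label: its H1 and H3 sums, 0.80 and 0.92 times those of MCF10A, were 0.993 and 1.14 times when taken as a share of each library's reads, so the H3 order turned.

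**Figure D2:**
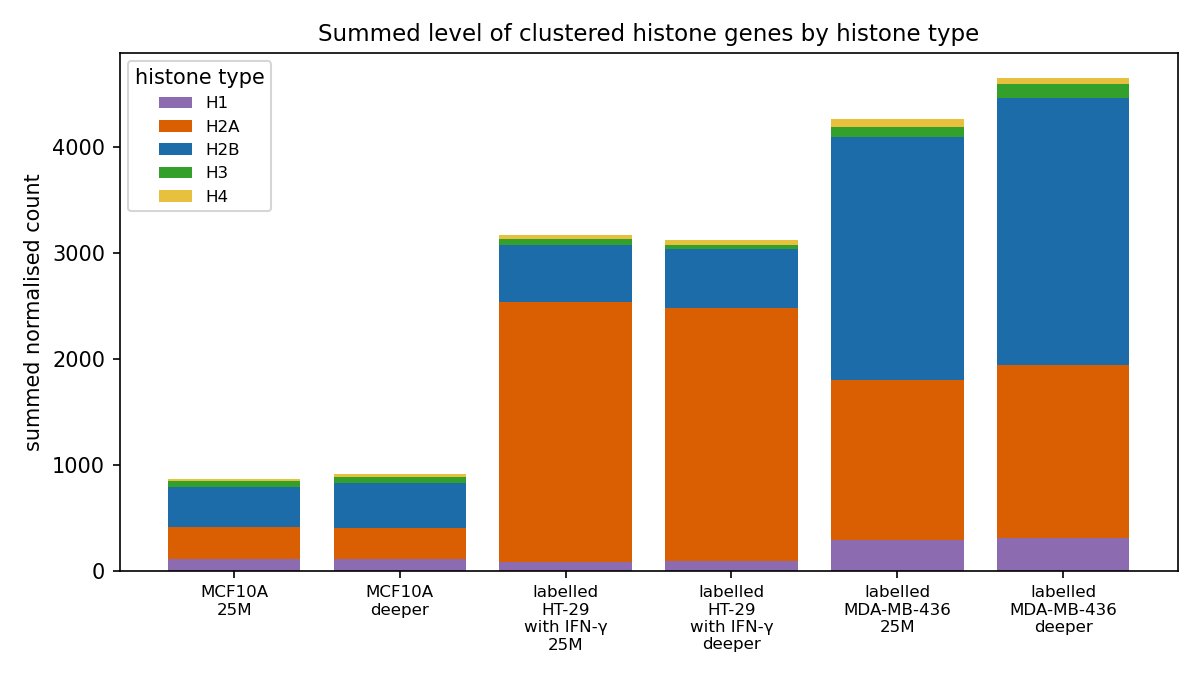
Summed normalised count of all 73 members (y axis, from 0) in each of the 6 libraries (x axis), stacked by histone type. H2A fills most of the bars labelled HT-29, H2B is the largest layer in the bars labelled MDA-MB-436, and H3 and H4 are thin in all 6 (counts, not per kb).

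By cluster, HIST1 summed to 587 ± 50.9, 2712 ± 48.7 and 2918 ± 205, HIST2 to 129 ± 10.2, 268 ± 7.05 and 947 ± 46.1, and HIST3 to 173 ± 9.08, 158 ± 3.44 and 583 ± 32.2 (SD, n = 2 each; MCF10A, labelled HT-29, labelled MDA-MB-436). HIST4 holds only HIST4H4, at 0.936 ± 1.32, 3.49 ± 2.81 and 8.33 ± 5.69. HIST2H2BE gave most of the HIST2 sum in the libraries labelled MDA-MB-436: without it the sums were 106 ± 0.835, 200 ± 3.91 and 108 ± 1.37, highest in the libraries labelled HT-29. As a share of reads, the HIST1 sum of the HT-29 label turned from 0.93 to 1.17 times that of the MDA-MB-436 label, and its HIST3 sum from 0.914 to 1.13 times that of MCF10A.

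Per kb, HIST3H2A, a single H2A gene, was the highest of the 12 leading members in MCF10A with 347 ± 22.6 normalised counts per kb. HIST1H2BK followed with 229 ± 29.6 and HIST1H1C with 136 ± 7.35. HIST1H2BH at 101 ± 5.80 and HIST2H2AC at 96.7 ± 2.97 did not differ beyond their spread. In the libraries labelled HT-29, HIST1H2AC stood at 3900 ± 110 per kb, followed by HIST3H2A at 309 ± 0.283 and HIST1H2BK at 299 ± 4.0. In those labelled MDA-MB-436, HIST1H2AC led with 1669 ± 122, then came HIST1H2BK with 1265 ± 94.8 and HIST3H2A with 1150 ± 62.4, and HIST1H1C at 383 ± 15.4 and HIST2H2BE at 377 ± 21.4 did not differ beyond their spread (SD, n = 2 throughout).

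Differences were tested with limma on log2(normalised count + 1), in 1 fit of 15638 genes, and a gene was called where the adjusted p was below 0.05 and the fold change at least 2 in either direction. Only 25 members reached a normalised count of 10 in 2 libraries and were tested: 2 H1, 5 H2A, 12 H2B, 4 H3 and 2 H4 genes. The other 48 never exceeded 20.6. Of the 25, 13 reached 10 in all 3 lines and 7 did so only in the libraries labelled MDA-MB-436, where a high value was the condition for being tested. Counts are therefore given for the 13 as well. The comparisons share libraries with each other.

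**Figure D3:**
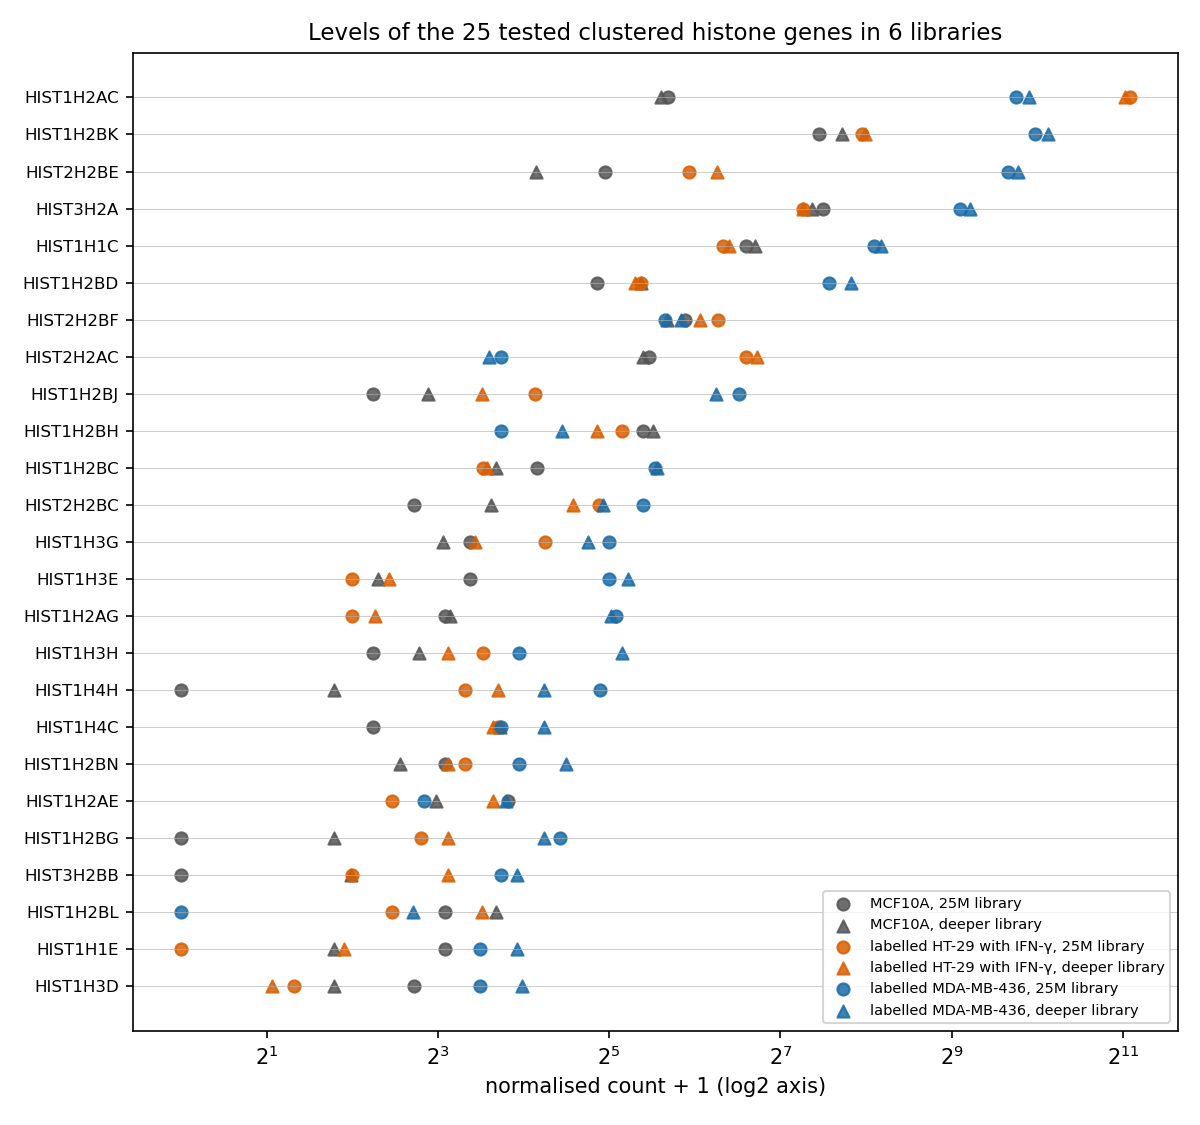
Normalised count plus 1 (x axis, log2 scale) of the 25 tested members (y axis, in order of mean level) in the 6 libraries, circles for the 25M and triangles for the deeper library of each line. The top 6 rows have the MDA-MB-436 label far to the right of MCF10A, the HT-29 label lies furthest right for HIST1H2AC, and in the lower rows the libraries of a line spread apart.

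The libraries labelled MDA-MB-436 had more RNA of most tested members than MCF10A, led by HIST2H2BE and HIST1H2AC, and less of HIST2H2AC and HIST1H2BH. Of the 25 members 20 were called, 18 higher and 2 lower, where 49.2% of all tested genes were called, 25.6% higher and 23.7% lower. Of the 13 members that reached 10 in every line, 8 were higher and 2 lower. The median log2 fold change was 1.72 over the 25 and 1.63 over the 13, against 0 over all tested genes. Among the 13, 5 of 7 H2B and 2 of 4 H2A genes were higher and 1 of each type was lower. None of the 4 tested H3 genes was among the 13.

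HIST2H2BE, an H2B gene with a long tailed form, had normalised counts of 30.0 and 16.7 in MCF10A, 60.0 and 75.5 under the HT-29 label, and 805 and 872 under the MDA-MB-436 label. The 3 groups did not overlap, and those labelled MDA-MB-436 were far above the rest. Its log2 fold change against MCF10A was 5.16 (SE 0.26, limma adjusted p = 4.04e-07), and the ratio of pooled reads was 44.0 (95% counting interval 33.3 to 59.6, 1807 against 50 reads).

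HIST1H2AC, an H2A gene, had 50.6 and 47.6 in MCF10A, 2168 and 2083 under the HT-29 label, and 863 and 957 under the MDA-MB-436 label. Both carcinoma labels lay far above MCF10A. For the label MDA-MB-436 the log2 fold change was 4.18 (SE 0.08, limma adjusted p = 1.43e-09) and the ratio of pooled reads 19.4 (interval 16.2 to 23.4).

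HIST1H2BK, the H2B gene that shares most of its coding stretches, had 174 and 209 in MCF10A, 248 and 252 under the HT-29 label, and 1003 and 1115 under the MDA-MB-436 label. HIST3H2A had 180 and 164, 153 and 153, and 548 and 591 in the same order. Both were several times higher under the MDA-MB-436 label than elsewhere, while MCF10A and the HT-29 label lay close. Against MCF10A their log2 fold changes were 2.46 (SE 0.10, adjusted p = 1.35e-07) and 1.72 (SE 0.09, adjusted p = 6.03e-07).

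HIST1H1C, the leading linker histone gene, had 95.5 and 103 in MCF10A, 79.5 and 83.7 under the HT-29 label, and 272 and 288 under the MDA-MB-436 label. HIST1H2BD, a further H2B gene, had 28.1 and 40.3, 40.5 and 38.3, and 189 and 225. In both genes the MDA-MB-436 label stood clear of the others, with log2 fold changes against MCF10A of 1.49 (SE 0.12) and 2.58 (SE 0.21). HIST1H2BC had 16.9 and 11.8, 10.5 and 10.9, and 45.3 and 46.2, with a log2 fold change of 1.63 (SE 0.28). HIST1H2BJ had 3.75 and 6.38, 16.5 and 10.4, and 90.6 and 75.1, with a log2 fold change of 3.82 (SE 0.35). HIST2H2BC, a transcribed H2B pseudogene, had 5.62 and 11.3, 28.5 and 23.0, and 41.2 and 29.6, and both carcinoma labels were above MCF10A in it. HIST1H4H, the H4 gene that was called, rested on few reads: 0 and 2.45, 9.0 and 12.04, and 28.8 and 17.9, from 5 reads in MCF10A, 28 under the HT-29 label and 43 under the MDA-MB-436 label.

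HIST2H2AC went the other way, with 43.1 and 41.2 in MCF10A, 96.0 and 104.5 under the HT-29 label, and 12.4 and 11.1 under the MDA-MB-436 label. The 3 groups did not overlap. It was lower under the MDA-MB-436 label than in MCF10A by a log2 fold change of -1.76 (SE 0.20, limma adjusted p = 6.89e-05). HIST1H2BH, an H2B gene, had 41.2 and 44.7, 34.5 and 27.9, and 12.4 and 20.9, a log2 fold change of -1.36 (SE 0.30, limma adjusted p = 0.00317). HIST2H2BF, with 58.0 and 50.1, 76.5 and 65.7, and 49.4 and 56.0, had a log2 fold change of -0.03 between the MDA-MB-436 label and MCF10A (interval -0.47 to 0.40) and was not called in any comparison.

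Without either of the libraries labelled MDA-MB-436 the count of higher members was 12 in place of 18, as HIST1H2AG, HIST1H2BG, HIST1H2BN, HIST1H3D, HIST1H3E and HIST3H2BB then no longer reached the minimum of 10 in 2 libraries.

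**Figure D4:**
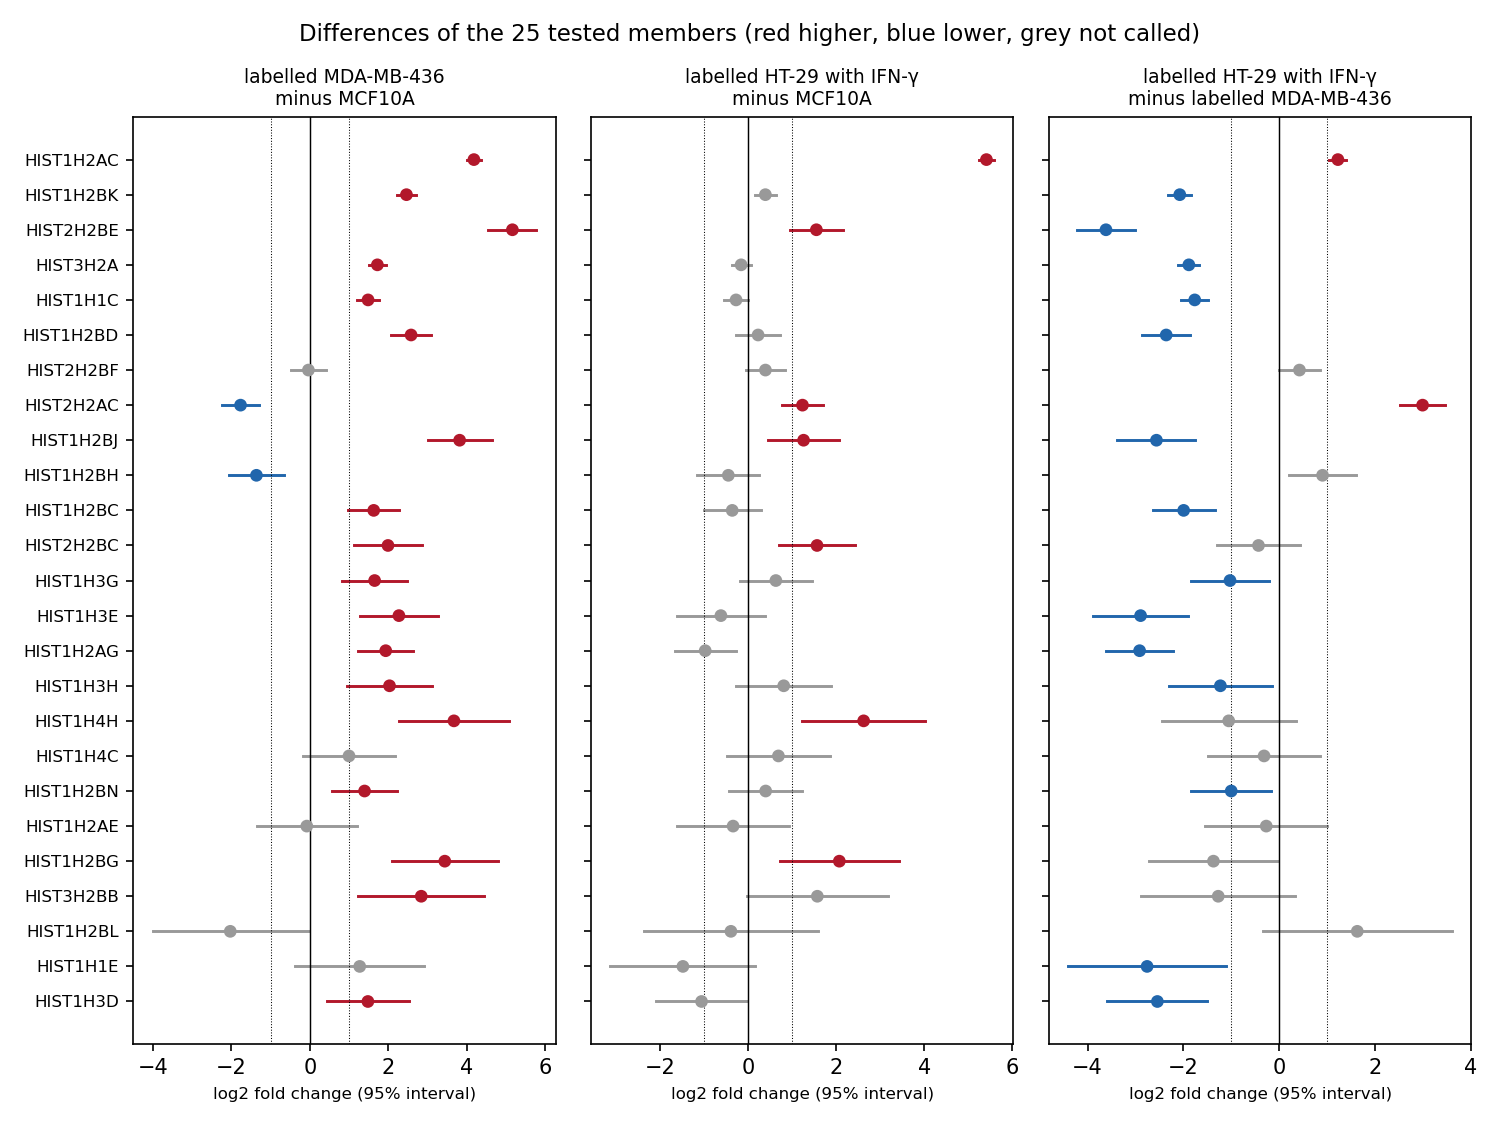
Log2 fold change (x axis) of the 25 tested members (y axis) in the 3 comparisons, with 95% intervals from the fit across all genes and dotted lines at a log2 fold change of 1 in each direction. Most members lie to the right in the first panel and to the left in the third, HIST2H2AC does the opposite in both, and most intervals in the middle panel include values under 1.

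The libraries labelled HT-29 differed from MCF10A in fewer members, and 1 of them, HIST1H2AC, exceeded the rest by far. Of the 25 members 7 were called by limma, all higher, where 46.5% of all tested genes were called, 28.4% higher and 18.1% lower, so the share of members that were higher was near that of all genes. At an unadjusted limma p below 0.05, 11 of the 25 members differed, beside 13458 of the 15638 tested genes, so members passed it less often. edgeR called 0 members lower as well. Of the 13 members that reached 10 in every line 4 were higher. The median log2 fold change was 0.39 over the 25, against 0.13 over all tested genes.

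HIST1H2AC, with the values given above, had a log2 fold change of 5.41 (SE 0.08, limma adjusted p = 8.33e-10) and a ratio of pooled reads of 43.7 (interval 36.5 to 52.6, 5252 against 124 reads). HIST2H2BE and HIST2H2AC were also higher, by log2 fold changes of 1.55 (SE 0.26, adjusted p = 7.22e-04) and 1.23 (SE 0.20, adjusted p = 6.33e-04). HIST2H2BC was higher by 1.56 (SE 0.37). HIST1H4H, at 2.62 (SE 0.60), HIST1H2BG, at 2.07 (SE 0.58), and HIST1H2BJ, at 1.25 (SE 0.35), rested on 5, 5 and 15 reads in MCF10A. With 9.0 and 12.04 under the HT-29 label, HIST1H4H reached 10 in 2 libraries only with those labelled MDA-MB-436 counted. HIST1H2BG, an H2B gene, had 0 and 2.45 in MCF10A, 6.0 and 7.66 under the HT-29 label, and 20.6 and 17.9 under the MDA-MB-436 label. Its call ended without either library labelled MDA-MB-436, as it then missed the minimum of 10, and without the deeper library labelled HT-29 (log2 fold change 1.91, limma adjusted p = 0.0666), and that of HIST1H2BJ without the 25M library labelled HT-29 (0.95) or the 25M MCF10A library (0.94).

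Among members not called, HIST1H1C had a log2 fold change of -0.28 (interval -0.56 to -0.001), HIST3H2A of -0.16 (-0.38 to 0.05) and HIST1H2BK of 0.39 (0.15 to 0.63). The intervals of these 3 do not reach a 2-fold difference. The intervals of HIST1H1E (-3.13 to 0.16) and HIST1H3E (-1.62 to 0.37) are wide, and a difference of that size was not detectable at their depth of 5 to 13 reads per line. The libraries labelled HT-29 are also sensitive to scaling: when counts are scaled by library size instead, the median of all genes moves by 0.31 against MCF10A and by 0.34 against the MDA-MB-436 label, and TMM moves the former by -0.13. With library-size scaling 9 members were higher.

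Between the 2 carcinoma labels, most called members were lower under the HT-29 label. Of the 25 members 16 were called, 2 higher and 14 lower, where 53.4% of all tested genes were called, 29.9% higher and 23.5% lower. Among the 13 that reached 10 in every line 2 were higher and 6 lower. The median log2 fold change was -1.27 over the 25 and -0.43 over the 13, against 0.09 over all tested genes. The 2 higher members were HIST2H2AC, by 2.99 (SE 0.20, limma adjusted p = 2.35e-06), and HIST1H2AC, by 1.23 (SE 0.08, limma adjusted p = 1.28e-06). HIST2H2BE was lower by a log2 fold change of -3.62 (SE 0.26), with a ratio of pooled reads of 0.0833 (interval 0.0710 to 0.0972). With library-size scaling 4 members were higher and 9 lower. HIST1H1E and HIST1H3D were then not tested, as they missed the minimum of 10. Leaving out either library labelled MDA-MB-436 left 8 lower.

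Low members made up much of this list. HIST1H2AG, an H2A gene, had 7.49 and 7.86 in MCF10A, 3.00 and 3.83 under the HT-29 label, and 32.9 and 31.4 under the MDA-MB-436 label, and was lower under the HT-29 label by a log2 fold change of -2.92 (SE 0.30). HIST1H3E, an H3 gene, had 9.36 and 3.93, 3.00 and 4.38, and 30.9 and 36.3, and a log2 fold change of -2.90 (SE 0.42). HIST1H1E, an H1 gene, had 7.49 and 2.45, 0 and 2.74, and 10.3 and 14.2, and a log2 fold change of -2.76 (SE 0.70). All 3 reached 10 only under the MDA-MB-436 label, so their being tested already required a high value there.

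Back-to-back neighbours did not always move together. In 5 of the 11 H2A and H2B pairs both genes were tested. HIST2H2AC and HIST2H2BE changed in opposite directions between MCF10A and the MDA-MB-436 label: the ratio of H2A to H2B levels per kb was 7.33 and 12.6 in MCF10A, 8.15 and 7.05 under the HT-29 label, and 0.0782 and 0.0648 under the MDA-MB-436 label. For HIST1H2AC and HIST1H2BC the ratio was 2.41 and 3.24, 166 and 153, and 15.3 and 16.6. Under the HT-29 label only the H2A gene of that pair was called, and the H2B gene had a log2 fold change of -0.37 (interval -1.01 to 0.28). HIST3H2A and HIST3H2BB, whose starts are 230 bases apart, were both higher under the MDA-MB-436 label than in MCF10A, as were HIST1H2AG and HIST1H2BJ, at 248 bases. Of HIST1H2AE and HIST1H2BG, at 233 bases, only the H2B gene was called there. HIST3H2BB, HIST1H2AG and HIST1H2BG reached 10 only under the MDA-MB-436 label, so these 3 pairs could be tested only because of a high value there. The genes of a pair also differ in counted length and in shared stretches.

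**Figure D5:**
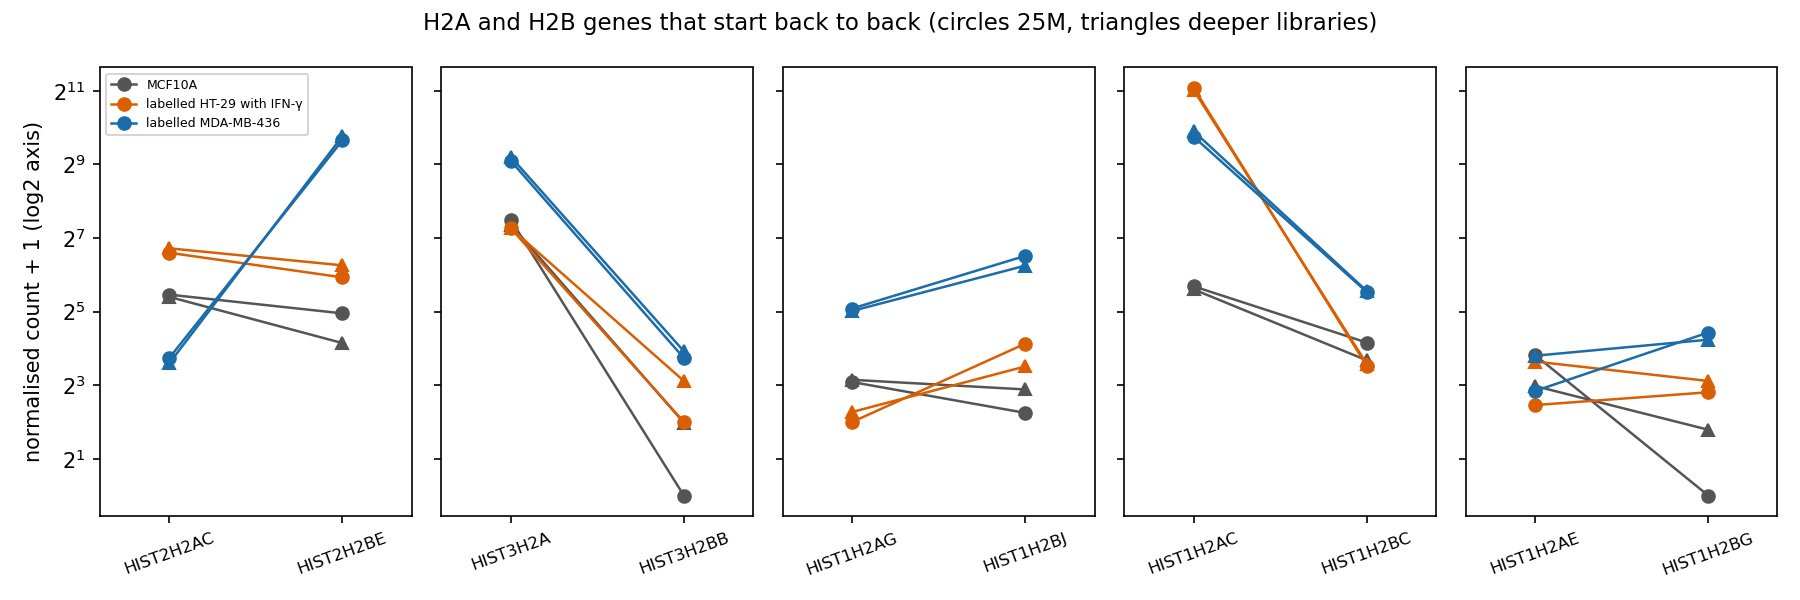
Normalised count plus 1 (y axis, log2 scale) of both genes in the 5 back-to-back pairs with both genes tested, with a line for each library. In the first panel the lines of the MDA-MB-436 label rise from HIST2H2AC to HIST2H2BE while the others fall, and in the fourth those of the HT-29 label fall most steeply from HIST1H2AC to HIST1H2BC.

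Members reported to give tailed mRNA as well (HIST1H1C, HIST1H2AC, HIST1H2BC, HIST1H2BD, HIST1H2BK and HIST2H2BE) made up 45.5% and 47.0% of the summed level in MCF10A, 82.3% and 81.6% under the HT-29 label, and 74.6% and 75.3% under the MDA-MB-436 label. HIST1H2AC alone gave 67.7% of the summed level under the HT-29 label, so the share there rests mainly on this gene and not on the list as a set. All 6 listed members were higher under the MDA-MB-436 label than in MCF10A, where 25.6% of all tested genes were higher and 23.7% lower. Under the HT-29 label 2 of 6, HIST1H2AC and HIST2H2BE, were higher, where 28.4% of all tested genes were higher and 18.1% lower. The 19 other tested members had 12 higher and 2 lower, and 5 higher and 0 lower, in these comparisons. Under the HT-29 label the shares of higher members in both sets lay near that of all genes. Of the 19, 7 reached 10 only under the MDA-MB-436 label, and 6 of these 7 are among the 12 higher ones. Their being tested already required a high value there, whereas all 6 members on the list reached 10 in every line. The 2 sets can thus not be compared by these counts. The list rests on reports and not on the transcript models. In those models HIST1H1C and HIST1H2BK had neither the hairpin nor AATAAA or ATTAAA near the end. Both were found in 14 of the 25 tested members, among them HIST3H2A and HIST2H2BF, which are not on the list. The 4 testis genes on the list, HIST1H1T, HIST1H2AA, HIST1H2BA and HIST3H3, were too low to test. Of 10 other RNAs known to lack tails, 8 were in the tables and 2, RMRP and RPPH1, were tested. Neither was called in any comparison, but their libraries under the MDA-MB-436 label were far apart, at 0 and 25.9 for RMRP and at 10.3 and 36.3 for RPPH1, so no direction can be read from them.

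Histone genes outside the clusters include the replacement histones, most of whose mRNAs carry tails. Their summed normalised count, not corrected for length, was 76.9 and 72.5 times that of the clustered members in MCF10A, 11.9 and 11.9 times under the HT-29 label, and 34.4 and 32.5 times under the MDA-MB-436 label. Of 11 tested, 4 were higher and 1 lower under the MDA-MB-436 label than in MCF10A, where 25.6% and 23.7% of all tested genes were. Under the HT-29 label 2 were higher and 2 lower than in MCF10A, beside 28.4% and 18.1% of all tested genes. H1F0, a linker histone of resting and differentiated cells, had 983 and 990 in MCF10A, 2736 and 2654 under the HT-29 label, and 62015 and 64688 under the MDA-MB-436 label, a log2 fold change of 1.45 for the HT-29 label and a ratio of pooled reads of 64.8 for the MDA-MB-436 label against MCF10A. H2AFY2, a macroH2A gene, had 1296 and 1268, 1247 and 1220, and 6.18 and 6.77, and so was nearly absent under the MDA-MB-436 label. H3F3B, a replacement H3 gene, averaged 17238, 8704 and 39242, while H3F3A is listed at 0 in 5 of 6 libraries. H3F3A thus adds almost nothing to the replacement sum, and the duplicated HIST2 copies add nothing to the clustered sum. Whether these genes are expressed was not tested, and the ratios of the sums cover counted reads only. Single genes also weigh on these ratios. HIST1H2AC gave 67.7% of the clustered sum under the HT-29 label. Under the MDA-MB-436 label, H1F0 gave 62015 and 64688 of replacement sums of 146310 and 151028.

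Genes of histone mRNA transcription, processing and decay went in both directions. Of 16, 1 was higher and 4 lower under the MDA-MB-436 label than in MCF10A, where 25.6% and 23.7% of all tested genes were. Under the HT-29 label 1 was higher and 2 lower than in MCF10A, beside 28.4% and 18.1% of all tested genes. Between the carcinoma labels 7 were higher and 2 lower under the HT-29 label, beside 29.9% and 23.5% of all tested genes. SLBP had 3258 and 3257 in MCF10A, 5355 and 5482 under the HT-29 label, and 2407 and 2385 under the MDA-MB-436 label, with log2 fold changes against MCF10A of 0.73 and -0.44, neither called, and of 1.18 (SE 0.03, limma adjusted p = 5.31e-09) between the carcinoma labels. NPAT, the coactivator of histone gene transcription, averaged 984, 880 and 1453. The cyclins CCNE1 and CCNE2, which act upstream of NPAT, were lower under the MDA-MB-436 label than in MCF10A, by log2 fold changes of -1.89 and -1.80, and were not called under the HT-29 label.

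Of 20 replication genes 1 was higher and 12 lower under the MDA-MB-436 label than in MCF10A, where 25.6% and 23.7% of all tested genes were, with a median log2 fold change of -1.17. PCNA, the sliding clamp, averaged 9059 in MCF10A, 3488 under the HT-29 label and 2785 under the MDA-MB-436 label. Under the HT-29 label 1 was higher and 4 lower than in MCF10A, beside 28.4% and 18.1% of all tested genes. Between the carcinoma labels 6 were higher and 1 lower under the HT-29 label, beside 29.9% and 23.5% of all tested genes. Of 13 histone chaperones 2 were higher and 2 lower under the MDA-MB-436 label than in MCF10A, beside 25.6% and 23.7% of all tested genes. The 2 lower ones, CHAF1A and CHAF1B, encode subunits of CAF-1, which loads new H3 and H4 behind the replication fork, and had log2 fold changes of -1.84 and -1.60. Whether cell cycle state, tail capture or the line moved the clustered members was not tested.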

How the data were processed

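RNA of 6 libraries, 2 for each of 3 cell lines, was compared by labelled line. Per the submitters' processing notes, the tools were FastQC, STAR 2.2.0 and HTSeq, on hg19. For annotation and strand, the settings were not given in the sources used here. Per the file headers, the authors deposited a normalised count and an RPKM value per gene symbol. The deposited normalised counts are a signal with 1 scale factor per library: 100% of those above 0 came out as whole reads (tolerance 0.001), which recovers the reads. RPKM served only to derive gene lengths, which for members were the same in all libraries. Of 23368 rows, 28 with date-like names were left out.

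The unit is not raw counts, so limma 3.58.1 (R 4.3.3; trended, robust prior) was run on log2(normalised count + 1) for genes at 10 or more in 2 libraries, with 6 libraries in 1 fit, 3 residual degrees of freedom and Benjamini-Hochberg adjustment over 15638 genes. All adjusted p-values printed come from limma. edgeR 4.0.16 on recovered reads called 4268 genes higher and 3098 lower for the HT-29 label against MCF10A, 3904 and 3868 for the MDA-MB-436 label against MCF10A, and 4625 and 3781 between the labels. DESeq2 1.42.0, other pseudocounts, filters and scalings, and leaving out libraries were further alternatives. Ratios of pooled reads carry exact 95% intervals that cover counting error only.

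Members and gene lists were chosen with earlier results of these data known. Members given in every library are the 12 with the highest mean, and up to 4 called in each direction with the largest fold change per comparison. Up to 4 genes per other list are named. On simulated counts, for the MDA-MB-436 label against MCF10A, limma called 67 of 67 genes with a 3-fold change and 66 of 66 with an 8-fold change. There were 3 false calls among 14231 genes. It called 0 of 67 with a 1.5-fold change, which lies under the 2-fold threshold for a call. The changed genes were drawn only from genes with a mean well above the minimum of 10. Recovery of changes in the lower tested members was therefore not tested. Over genes, the paired libraries differed by a median chi-square of 0.546, 0.709 and 0.672 (MCF10A, HT-29 label, MDA-MB-436 label), where sampling alone gives 0.455. Over members the medians were 0.726, 0.423 and 0.938.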

Additional observations from a re-analysis of the deposited data

How the results depend on the processing

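Depth limits the tests: 25 of 73 members were tested, and leaving out a library of n = 2 leaves a lone sample that is assumed to vary like the others. Members called higher and lower for the MDA-MB-436 label against MCF10A were 18 and 2, with no filter 26 and 6, and with a minimum of 50 they were 7 and 1, as only 9 were then tested. With no filter 63 members were tested, and the added ones never exceeded a normalised count of 20.6. Counts under other filters are not set beside the shares of all genes called there, so they describe only how the filter moves the calls. Leaving out 1 library gave 12 to 18 higher and 2 to 3 lower. For the HT-29 label against MCF10A, 7 were higher and 0 lower. There were 4 higher with a minimum of 50, and 1 lower with a pseudocount of 0.5, with no filter and with TMM scaling. Leaving out 1 library gave 6 to 9 higher and 0 to 2 lower. Between the labels, 2 were higher and 14 lower. There were 7 higher and 19 lower with no filter, 4 higher and 9 lower with library-size scaling, and 6 lower with a minimum of 50. Leaving out 1 library gave 2 to 4 higher and 8 to 16 lower. Library-size scaling called 5445 genes higher and 1990 lower, against 4442 and 2823, for the HT-29 label over MCF10A, and 5692 and 2797, against 4675 and 3675, between the labels. The H2A sum, 1.54 times as high under the HT-29 label as under the MDA-MB-436 label, reversed to 0.444 without HIST1H2AC. Except for filters and left-out genes, the cause was not tested. HIST1H2BJ for the HT-29 label against MCF10A also lost its call with a pseudocount of 5, edgeR and DESeq2. HIST1H2BG lost it with a pseudocount of 5 and DESeq2. With only the 2 lines compared, HIST1H2BG and HIST1H4H were not tested, as they missed the minimum of 10 in 2 libraries. HIST1H2BH between the labels gained one in 3 settings. No other call of the 12 highest members changed in the settings where they were tested. Calls of lower members changed in several. HIST1H2AG became lower for the HT-29 label against MCF10A with a pseudocount of 0.5 and TMM. HIST1H3D lost its call for the MDA-MB-436 label against MCF10A with a pseudocount of 5 and DESeq2. With TMM and library-size scaling HIST1H1E and HIST1H3D were not tested at all. Both stood at 10.3 in the 25M library labelled MDA-MB-436, just above the minimum of 10, and missed it after rescaling. With TMM 23 members were tested, and with library-size scaling 24, HIST1H3J being new. The replicate block by depth label gave 18 higher and 3 lower, 8 and 0, and 3 and 16 members. Correlations of deeper minus 25M deviations between lines were -0.0028, 0.0073 and 0.0276, so no deviation shared by depth label was seen. Anything common to both libraries of a line cancels in these differences, so a shared preparation or run was not tested.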
